A study of Homo sapiens with 9 samples.

Results

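The 10 genes described here encode members of the AP-1 transcription factor group and its ATF and BATF relatives: FOS, FOSB, FOSL1 and FOSL2 of the FOS family, JUN, JUNB and JUND of the JUN family, and ATF3, BATF and BATF3. They were chosen by symbol from the 21229 genes of the deposited count table, and all 10 were found and tested. The RNA came from blood-forming cells made in culture from H1, an established human embryonic stem cell line, and was sequenced as strand-specific libraries. The first group, CD38+ control, carried the control genotype and the surface marker CD38, which appears on blood cells as they leave the stem cell state. The second, CD90+ control, carried the control genotype and CD90 (the product of THY1), a marker of immature blood cells. The third, GATA2 overexpression CD90+, was also CD90+ and overexpressed GATA2, a transcription factor of blood stem and progenitor cells. Each group had 3 libraries, so all 9 share 1 cell line, and how GATA2 was overexpressed is not given in the sources used here. No label says that replicates came from separate cultures, so p-values measure only the spread between these libraries, which may be technical.

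AP-1 is a dimer of basic leucine zipper proteins. FOS family proteins do not bind DNA as homodimers and need a JUN partner, whereas JUN proteins can pair with each other, with FOS proteins or with ATF proteins. FOS, FOSB, JUN, JUNB and ATF3 are immediate early genes, switched on within minutes by growth factors or stress through mitogen-activated protein kinases. BATF and BATF3 lack a transactivation domain, pair with JUN proteins and cooperate with interferon regulatory factors in lymphoid and dendritic cells.

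The RefSeq promoter table (GRCh38.p14) held windows for 8 of the 10 genes, from 250 bases before to 50 after the transcript start. FOSL1 and BATF3 had none. ATF3 had 2 windows, and both were searched. Counts of motifs among the 8 are per gene, whereas the shares beside them are per window. Short stretches are shown for the genes whose levels are compared below, because same-family genes that moved in opposite directions can be read side by side. Capitals mark letters that match an AP-1, cyclic AMP response, GATA or TATA motif on either strand, and positions count back from the start. CCAAT and GGAA, which are more common, were searched too but are left in lower case, and the JUNB stretch holds both, CCAAT at -67 to -63 and GGAA on the reverse strand at -52 to -49. The first stretch runs from -70 to -41 at chr14:75278758-75278787 (plus strand) for FOS, chr19:45467926-45467955 (plus) for FOSB, chr2:28392788-28392817 (plus) for FOSL2, chr1:58784088-58784117 (minus) for JUN and chr19:12791416-12791445 (plus) for JUNB.
FOS: agcccgTGACGTttacactcattcataaaa
FOSB: aaggggcgggTGACGTaagcaggggggcgg
FOSL2: gggtTGACGTgagtgaatccacatggtaca
JUN: gggTGACATCAtgggctatttttaggggtt
JUNB: cggccaatcggagcgcacttccgtggctga
TGACGT holds the first 6 letters of the cyclic AMP response element and was added to the search after the sequences had been read. It occurred in 4 of the 8 genes (FOS, FOSB, FOSL2 and JUND) and in 7.98% of all 35116 windows. The full element TGACGTCA occurred in JUND alone and in 1.85% of all windows. TGACATCA, the variant AP-1 site known from the JUN promoter, occurred in JUN and ATF3 and in 2.61% of all windows. The classical AP-1 site TGACTCA was found only in FOSL2, after the start, and in 4.95% of all windows. The CArG box, to which SRF binds, was in no window of the 8 genes and in 1.29% of all windows. The FOS element known from the literature lies farther upstream than these windows reach.

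The next stretch runs from -40 to -11 of the same strands for 3 of these genes, at chr14:75278788-75278817 for FOS, chr19:45467956-45467985 for FOSB and chr1:58784058-58784087 for JUN. The BATF stretch, from -215 to -186 at chr14:75522254-75522283 (plus strand), is set beside them because it holds the same GATA-type letters as JUN on the other strand.
FOS: cgcttgtTATAAAagcagtggctgcggcgc
FOSB: gtcccgggcaTATAAAtacaggctggcggg
JUN: gactggtagcAGATAAgtgttgagctcggg
BATF: tttttctcttTTATCTtcatcaattgaaga
TATAAA occurred in 4 of the 8 genes and in 11.5% of all windows, and in FOS and FOSB, shown here, it stood close to -30. A motif of GATA factors with the letters AGATAA occurred in JUN and, on the reverse strand, in BATF, and it was in 10.3% of all windows. Its variant with T as the first letter was in none of the 8 and in 7.53% of all windows. CCAAT was in 4 of the 8 (JUN, JUNB, JUND and ATF3) and in 34.6% of all windows, and GGAA, the ETS core, in 7 of the 8 and 95.5%. A match to such short letters is not a measured binding site.

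Libraries held 37500192 to 47261093 counts. Differences between groups were widespread, since 80.4% of 16232 tested genes were called between CD90+ control and CD38+ control, 77.6% between GATA2 overexpression and CD90+ control, and 83.2% between GATA2 overexpression and CD38+ control (edgeR's quasi-likelihood test, adjusted p under 0.05). GATA2 averaged 569 CPM (reads assigned to the gene relative to the TMM-scaled library total) in CD38+ control libraries, 87.3 in CD90+ control libraries and 376 in overexpressing ones, so it was 4.31-fold higher in the overexpressing than in the control CD90+ cells but below the CD38+ level. CD38 averaged 122, 4.37 and 2.23 CPM in the same order, and THY1 was at 0 in all CD38+ libraries against 4.43 and 3.06 CPM. Summed markers of other cells also differed. Macrophage markers (12 genes, led by CSF1R and VSIG4) summed to 1271 to 1341, 1814 to 1847 and 223 to 246 CPM in the 3 groups. CSF1R alone held 416, 1068 and 228 CPM of these sums, and from CD38+ to CD90+ control 6 of the 11 tested macrophage markers rose and 5 fell, VSIG4 from 355 to 30.4 CPM. In the same order, granulocyte markers (13 genes, led by CLC and S100A9) summed to 10850 to 11393, 2203 to 2225 and 2827 to 3158. Single genes of this list moved differently, MPO at 737, 970 and 1746 CPM and S100A9 at 2645, 327 and 84.3. Mesenchymal markers (10 genes, led by COL3A1 and LUM, with POSTN at 0 in CD38+ control) summed to 25.2 to 26.4, 1110 to 1129 and 270 to 290.

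From CD38+ to CD90+ control, FOS, FOSB, JUN and JUNB rose, FOSL1, FOSL2, ATF3, BATF and BATF3 fell, and JUND did not pass the test. The 4 rises compare with 41.1% of all tested genes called higher, and the 5 falls with 39.3% called lower. The libraries of the 2 groups did not overlap for 9 members, where 80.4% of all tested genes were called and 82.8% did not overlap. Of the members, 2 rose and 2 fell by at least 2-fold, where 36.2% of tested genes were called and changed that much. The members' median log2 fold change was -0.37, against 0.03 over all tested genes.

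With GATA2 overexpression, JUN and BATF rose further than any other member, and FOSB, FOSL2, JUNB, ATF3 and BATF3 fell. FOS and JUND rose slightly under TMM scaling but not when libraries were scaled by size alone. FOSL1 did not pass the test. The 4 rises stand beside 38.0% of tested genes called higher and the 5 falls beside 39.6% called lower, and the 9 members with no overlap beside 77.6% of genes called and 80.4% with no overlap. Of the members, 1 rose and 4 fell by at least 2-fold, against 29.4% of tested genes called at that size. The members' median was -0.51, and that of all genes -0.04.

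Set against CD38+ control, the overexpressing cells had 4 members higher and 6 lower, with no overlap for any of the 10, beside 83.2% of genes called (43.3% higher and 39.9% lower) and 83.0% with no overlap. Here 2 members rose and 3 fell by at least 2-fold, where 44.2% of genes did so, and the median was -0.56 against 0.07. This comparison shares its libraries with the other two, so its values are not further evidence.

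**Figure D1:**
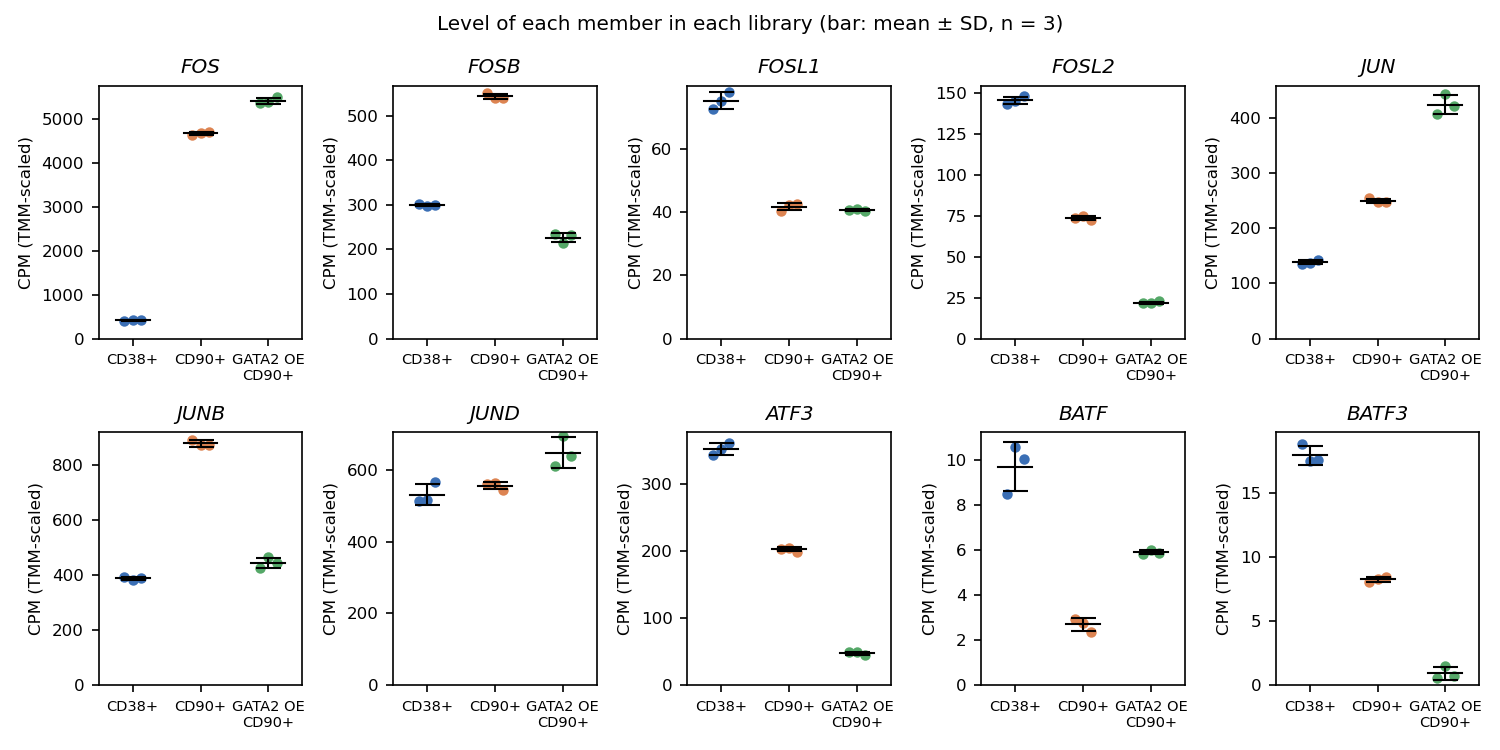
CPM (TMM-scaled, linear axes from 0, a separate scale for each gene) of the 10 genes in each library, as points, with the group mean and SD (n = 3) in black. FOS moves from 403 to 420 CPM in CD38+ control to 4629 or more in both CD90+ groups, while FOSB and JUNB are highest in CD90+ control alone and ATF3 and BATF3 fall from left to right.

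FOS, the partner of JUN in the classical AP-1 dimer, was at 403, 415 and 420 CPM in the CD38+ control libraries, 4629, 4667 and 4701 in CD90+ control, and 5353, 5372 and 5487 with GATA2 overexpression. All 6 CD90+ libraries lay far above the 3 CD38+ libraries, and the 2 CD90+ groups lay close together without overlap. The rise from CD38+ to CD90+ control was 11.3-fold (log2 3.50 ± 0.03 SE, edgeR adjusted p = 1.35e-22), and that with GATA2 overexpression 1.16-fold (log2 0.21 ± 0.02, adjusted p = 3.53e-07). The small second difference turned to -0.04 (adjusted p = 0.176) when libraries were scaled by total counts alone, so its direction rests on the scaling. In bulk RNA a change in the number of cells of a type and a change in RNA per cell cannot be told apart. Across the same groups the 7 megakaryocyte markers, led by PF4 and PPBP, summed to 525 to 530, 2450 to 2484 and 3865 to 3967 CPM, and thus were also higher in both CD90+ groups. The 11 erythroid markers summed to 251 to 260, 848 to 873 and 463 to 542 CPM, the 10 epithelial and endoderm markers to 358 to 374, 1076 to 1084 and 706 to 712, and the 10 mast cell markers to 1929 to 1953, 113 to 114 and 149 to 162. The part of these cells in the level of FOS was not tested. Per kilobase, FOS held rank 434 among 21129 genes in CD38+ control, rank 16 in CD90+ control and rank 19 in overexpressing cells.

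FOSB, the nearest relative of FOS among the immediate early genes, followed another course. Its libraries were at 302, 298 and 299 CPM in CD38+ control, 549, 539.9 and 539 in CD90+ control, and 234, 214 and 231 with GATA2 overexpression. The control CD90+ libraries were highest and the overexpressing ones lowest, with no overlap between any groups. FOSB rose 1.81-fold between the control groups (log2 0.86 ± 0.03 SE) and fell 2.40-fold with GATA2 overexpression (log2 -1.26 ± 0.03, edgeR adjusted p = 3.03e-16). FOS and FOSB thus rose together between the control groups, and FOSB fell with GATA2 overexpression while FOS did not. Both hold TGACGT and TATAAA at nearly the same distance from the start, as printed above. The whole FOSB gene (chr19:45467995-45475179, plus strand, GENCODE 29 on GRCh38) lies inside the span of ERCC1 on the other strand. Whether counting used the strand is not given in the sources used here. ERCC1 held 3693 to 4494 counts per library, against 8086 to 29764 for FOSB. Its counts equalled 35.2% of those of FOSB in CD38+ control, 13.5% in CD90+ control and 45.9% with GATA2 overexpression. The part of opposite-strand reads in the FOSB counts was not tested.

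FOSL1 and FOSL2 encode FRA1 and FRA2, FOS family members that accumulate later after a stimulus and lack the strong transactivation domain of FOS. FOSL1 was at 72.6, 74.9 and 77.9 CPM in CD38+ control, 40.4, 42.2 and 42.4 in CD90+ control, and 40.6, 40.9 and 40.1 with GATA2 overexpression. It fell 1.80-fold between the control groups, and the 2 CD90+ groups overlapped (log2 -0.04 ± 0.04 SE, edgeR adjusted p = 0.380). FOSL2 was at 143, 145 and 148, then 73.7, 74.7 and 72.0, then 21.5, 21.4 and 22.7 CPM. It stepped down at both contrasts without overlap, by 1.98-fold between the control groups (log2 -0.98 ± 0.03) and by 3.36-fold with GATA2 overexpression (log2 -1.75 ± 0.04, adjusted p = 9.93e-17). FOSL2 also carried TGACGT, and the 4 genes with these letters are FOS and FOSB, which rose from CD38+ to CD90+ control, FOSL2, which fell, and JUND, described below.

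JUN, the founding JUN protein and the strongest activator of its family, was at 136, 137 and 142 CPM in CD38+ control, 254, 248 and 247 in CD90+ control, and 408, 443 and 422 with GATA2 overexpression. The 3 groups formed an ascending series with no overlap. The rises were 1.81-fold (log2 0.85 ± 0.03 SE) and 1.70-fold (log2 0.76 ± 0.03, edgeR adjusted p = 2.27e-13).

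JUNB, which can oppose JUN at some promoters and restrains myeloid progenitor growth in mice, was at 393, 383 and 387 CPM in CD38+ control, 891, 869.9 and 870.0 in CD90+ control, and 425, 463 and 443 with GATA2 overexpression. CD90+ control stood well above both other groups. JUNB rose 2.26-fold between the control groups (log2 1.18 ± 0.03 SE) and fell 1.98-fold with GATA2 overexpression (log2 -0.98 ± 0.03, edgeR adjusted p = 4.96e-15). JUN and JUNB therefore moved together between the control groups and apart with GATA2 overexpression. JUNB (chr19:12791496-12793315, plus strand) lies whole within HOOK2 on the other strand, and HOOK2 held 159 to 508 counts per library against 14320 to 47956 for JUNB.

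JUND, the most evenly expressed JUN gene in most tissues, was at 514, 516 and 566 CPM in CD38+ control, 561, 564 and 545 in CD90+ control, and 611, 695 and 641 with GATA2 overexpression. The control groups overlapped, because the third CD38+ library was as high as CD90+ control. Their difference did not pass the test (log2 0.07 ± 0.04 SE, edgeR adjusted p = 0.159). It passed in 7 of 15 alternatives, so the call depends on the processing. These include scaling by total counts alone and upper-quartile factors, each with all libraries kept. Leaving out CD38+ control replicate 3 also gave a call, at 0.11 (adjusted p = 0.0155). The rise with GATA2 overexpression was 1.17-fold (log2 0.22 ± 0.04, adjusted p = 1.32e-04) and turned to -0.03 (adjusted p = 0.575) under scaling by total counts alone.

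**Figure D2:**
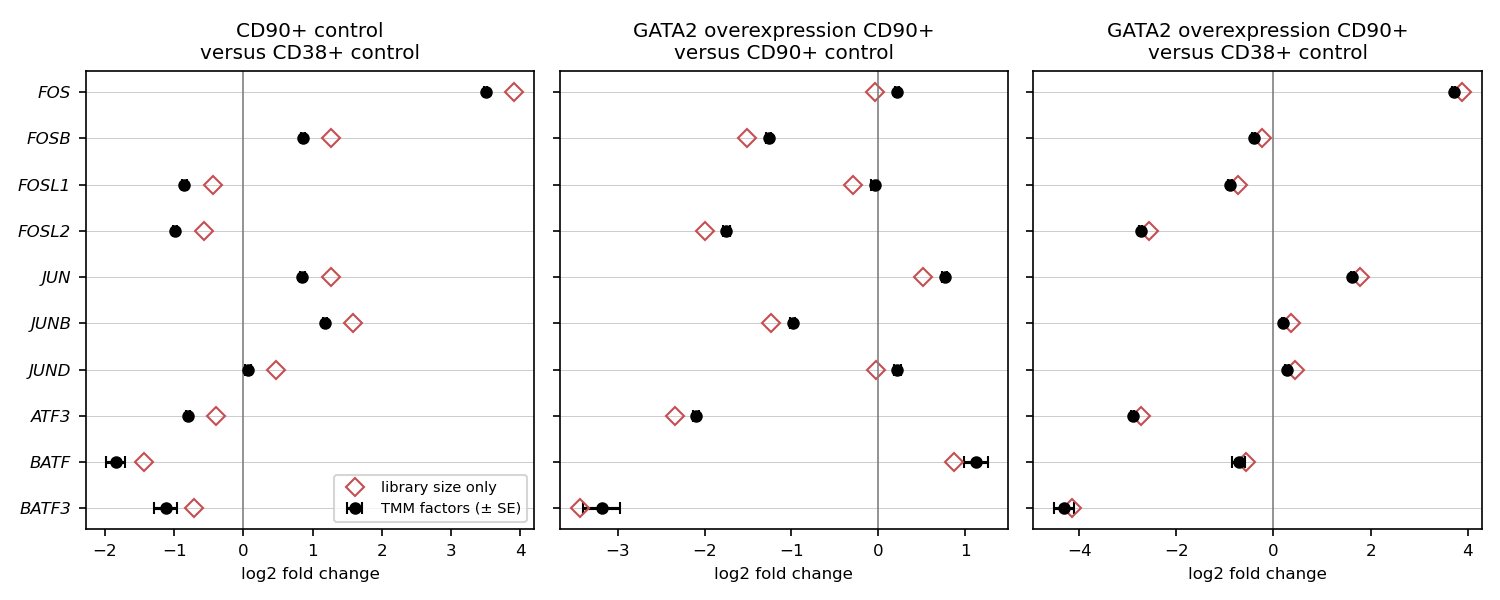
Log2 fold change of each gene in the 3 comparisons (x axis), in black with TMM factors and its SE, and as open diamonds with library size as the only scaling. FOS and JUND lie on opposite sides of 0 by the 2 scalings for GATA2 overexpression versus CD90+ control (0.21 and -0.04 for FOS), and the other members keep their side in every panel.

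Levels of different genes were compared per kilobase of exon (RPKM, TMM-scaled). In CD38+ control the order from the top was JUND (286), JUNB (213), FOS (127), ATF3 (87.3), FOSB (54.0), FOSL1 (39.8), JUN (39.1), FOSL2 (20.3), BATF (9.90) and BATF3 (6.62), and among neighbours in that order only FOSL1 and JUN overlapped. FOS led in both CD90+ groups, at 1441 RPKM in CD90+ control and 1669 with GATA2 overexpression. It was followed in CD90+ control by JUNB (482), JUND (299), FOSB (97.7), JUN (70.6) and ATF3 (50.2), and in overexpressing cells by JUND (348), JUNB (244), JUN (119.9), FOSB (40.8) and FOSL1 (21.5). At the low end of CD90+ control, BATF3 (3.04) and BATF (2.75) overlapped. The order of JUNB and JUND was thus the reverse in CD90+ control of that in the other groups. The order also depends on the gene length used. With the longest transcript as length, ATF3 (94.9 to 97.4) stood above JUN (69.9 to 71.9) in CD90+ control. The overlaps of FOSL1 with JUN and of BATF3 with BATF were absent with that length.

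Summed over its genes, the FOS family was at 242 ± 4.05 RPKM (SD, n = 3) in CD38+ control, 1571 ± 10.7 in CD90+ control and 1734 ± 22.8 with GATA2 overexpression. The JUN family was at 538 ± 16.7, 851 ± 11.0 and 712 ± 38.2. The ratio of the 2 sums, which does not depend on the scaling between libraries, was 0.449 ± 0.00945 in CD38+ control, 1.85 ± 0.0364 in CD90+ control and 2.44 ± 0.134 with GATA2 overexpression. JUN family RNA exceeded FOS family RNA in the CD38+ libraries, and the reverse held in all 6 CD90+ libraries. No sums or ratios overlapped between groups, and each pairwise exact two-sided permutation test gave p = 0.1, the smallest that 3 against 3 libraries allow.

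The make-up of each family changed as well. FOS supplied 52.8% ± 0.278 of FOS family RNA in CD38+ control, 91.7% ± 0.0900 in CD90+ control and 96.2% ± 0.103 with GATA2 overexpression, while FOSB went from 22.3% to 6.22% and 2.35%, and FOSL1 from 16.5% to 1.41% and 1.24%. Within the JUN family, JUNB held 39.7%, 56.6% and 34.2% in the 3 groups. JUN held 7.27%, 8.29% and 16.8%, and JUND 53.1%, 35.1% and 48.9%. JUNB was the larger part in CD90+ control and JUND in the other groups, and the share of JUN was highest in overexpressing cells. These shares, like the ratio, had no overlap between groups (exact permutation p = 0.1 for each pair). They describe RNA, not the dimers formed.

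**Figure D3:**
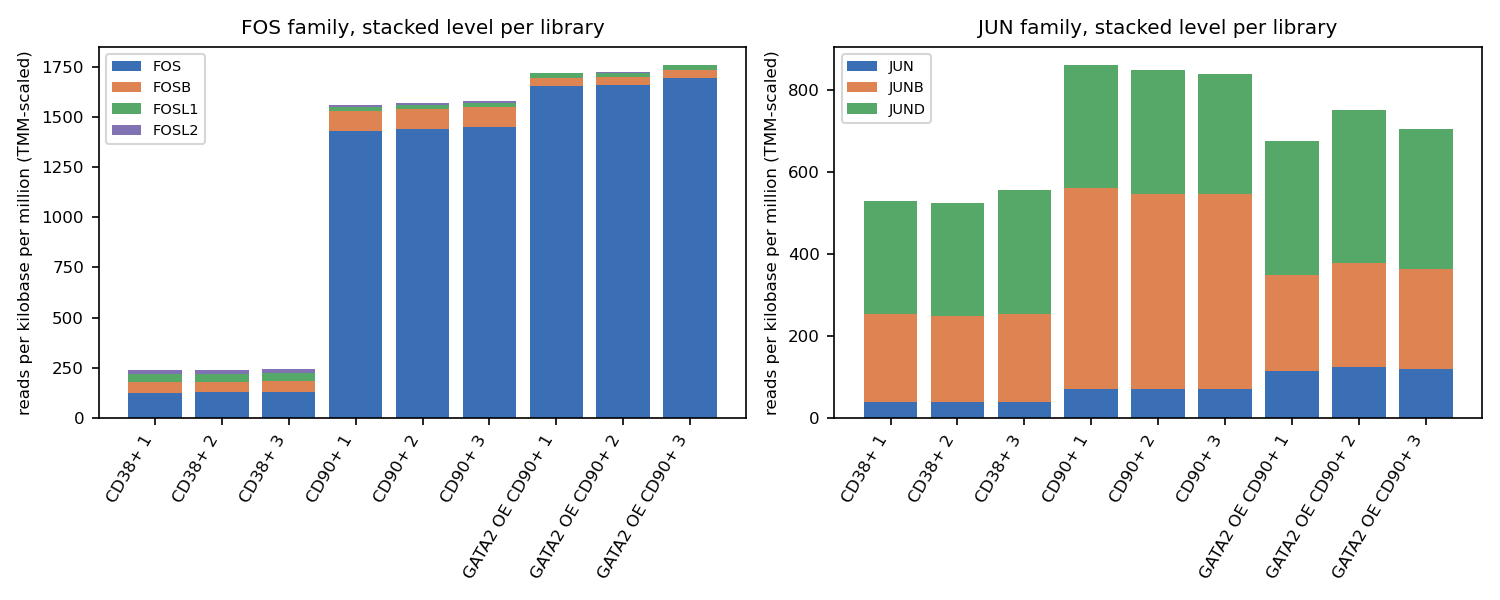
Stacked RPKM (TMM-scaled) of the FOS family genes (left) and JUN family genes (right) in each of the 9 libraries, on axes from 0. FOS fills most of the left bars in the CD90+ groups (91.7% and 96.2%), and the JUNB part of the right bars is largest in CD90+ control (56.6%).

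ATF3, a stress-induced gene whose homodimers repress and which also pairs with JUN proteins, was at 344, 353 and 362 CPM in CD38+ control, 204, 205 and 199.6 in CD90+ control, and 49.1, 48.7 and 44.2 with GATA2 overexpression. The groups stepped down with no overlap. The falls were 1.74-fold (log2 -0.80 ± 0.03 SE) and 4.28-fold (log2 -2.10 ± 0.04, edgeR adjusted p = 6.91e-18). ATF3 thus fell where FOS rose between the control groups, although both are immediate early genes.

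BATF, which joins IRF4 and IRF8 at composite elements in lymphocytes and dendritic cells, was low throughout. It was at 8.48, 10.6 and 10.04 CPM in CD38+ control, 2.95, 2.78 and 2.38 in CD90+ control, and 5.84, 6.01 and 5.84 with GATA2 overexpression. The CD90+ control libraries were lowest and the overexpressing ones lay in between. BATF fell 3.59-fold between the control groups (log2 -1.84 ± 0.14 SE) and rose 2.18-fold with GATA2 overexpression (log2 1.13 ± 0.14, edgeR adjusted p = 1.03e-06).

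BATF3, required for a class of cross-presenting dendritic cells, moved the other way from BATF in the GATA2 contrast. It was at 18.8, 17.5 and 17.6 CPM in CD38+ control, 8.03, 8.27 and 8.44 in CD90+ control, and 0.542, 1.46 and 0.707 with GATA2 overexpression, where the libraries held 21, 55 and 26 counts. Replicate 2 held more than the other two together, and all 3 lay far below CD90+ control. The falls were 2.18-fold (log2 -1.12 ± 0.16 SE) and 9.12-fold (log2 -3.19 ± 0.21, edgeR adjusted p = 3.36e-10).

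The falls of ATF3, BATF3, FOSL2, FOSB and JUNB with GATA2 overexpression came with a fall of all 11 tested macrophage markers and all 10 mesenchymal markers, whose sums are given above. Other marker lists fell too: epithelial and endoderm (9 fell, 1 rose), erythroid (7 and 2), lymphoid (4 and 1) and pluripotent (3 and 1). Blood stem and progenitor markers, which include GATA2, went the other way (3 fell, 9 rose). So did megakaryocyte (1 and 5), mast cell (2 and 7), granulocyte (4 and 7) and, narrowly, endothelial markers (3 and 4). A list of 34 other immediate early and heat shock genes holds many that respond to cell handling. Its summed level was 11090 to 11181 CPM in CD38+ control, 14074 to 14154 in CD90+ control and 11182 to 11256 with GATA2 overexpression. HSPA8 alone held 2277, 1572 and 1488 CPM of these sums in the same order, and HSP90AA1 1426, 1901 and 1722. The CD38+ control and overexpressing sums were close, yet 13 of the genes were higher in overexpressing cells and 20 lower (median log2 -0.53). Over all tested genes 43.3% were higher and 39.9% lower (median 0.07). Of the higher list genes, EGR1 averaged 166, 604 and 784 CPM in the 3 groups and DUSP1 322, 1718 and 1666. Of the lower ones, BTG2 averaged 859, 292 and 158 CPM and EGR2 263, 145 and 28.5. The summed level thus does not stand for each gene of the list. The part of macrophage, mesenchymal and other cells and of handling in the members' values was not tested.

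Of those 34 immediate early and heat shock genes, 24 rose and 7 fell from CD38+ to CD90+ control (median log2 0.58, all genes 0.03). CYR61 (now named CCN1), a secreted matrix protein gene, rose 45.5-fold, DUSP1 5.34-fold and EGR1, an early zinc finger factor gene, 3.65-fold, while BTG2, an antiproliferative gene, fell 2.94-fold. With GATA2 overexpression, 5 rose and 27 fell (median -1.09, all genes -0.04). MYC rose 2.23-fold and EGR1 1.30-fold, and SOCS3, a cytokine signalling inhibitor, fell 7.07-fold and NR4A2, an orphan nuclear receptor gene, 4.09-fold. JUN was thus on the side of the fewer genes in that contrast, and FOSB, JUNB and ATF3 on the side of the more numerous.

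The counts in the lists that follow stand beside 41.1% of all tested genes higher and 39.3% lower between the control groups (median log2 0.03). With GATA2 overexpression the shares were 38.0% higher and 39.6% lower (median -0.04). Scaling by library size alone shifted these all-gene medians by 0.41 and -0.25, so the splits may depend on it. Up and down counts of all lists but the interferon regulatory factors are given under TMM scaling only. Upstream of AP-1, 7 of 35 mitogen-activated protein kinase pathway genes rose and 21 fell in CD90+ against CD38+ control (median -0.46). MAP3K5, a stress-activated kinase gene, rose 2.46-fold and MAP3K8 fell 2.67-fold. With GATA2 overexpression 12 rose and 19 fell (median -0.40), among them MAPK12, a p38 kinase gene, up 1.67-fold, and MAP2K1, which encodes MEK1, down 2.28-fold. Of 7 genes for SRF, its coactivator MYOCD and ETS-type factors, among them the ELK factors that act with SRF on the FOS promoter, 3 rose and 4 fell between the control groups, where ELK3 rose 2.52-fold and SRF fell 1.73-fold. MYOCD, a muscle gene, counts among the rises at 0 CPM in CD38+ control and 0.720 in CD90+ control. With GATA2 overexpression none of the 7 rose and 6 fell, SRF by 1.35-fold. Feedback inhibitors of the pathway (dual-specificity phosphatases, Sprouty and SPRED genes) split between the control groups, with 7 of 16 up and 8 down, DUSP1 rising as above and DUSP6, an ERK phosphatase gene, falling 1.94-fold. With GATA2 overexpression 1 rose and 10 fell (median -0.74), DUSP2 by 3.55-fold and SPRED1 by 5.80-fold. The 1 rise was DUSP8, near the floor at 0.0787 CPM in CD90+ control and 0.773 ± 0.885 (SD) in overexpressing cells.

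Among 31 other basic leucine zipper genes, which include partners of the members, 7 rose and 21 fell between the control groups (median -0.61). ATF5 fell 10.3-fold. With GATA2 overexpression 10 rose and 17 fell (median -0.43): NFE2, a megakaryocyte and erythroid factor gene, rose 3.54-fold, whereas MAF fell 7.82-fold. Of 8 interferon regulatory factor genes, which include the BATF partners IRF4 and IRF8, 2 rose and 6 fell between the control groups, IRF8 rising 2.67-fold and IRF4 falling 3.44-fold. Scaled by library size alone, 3 of the 8 rose and 1 fell. With GATA2 overexpression 1 rose and 7 fell (median -1.87), IRF8 by 12.1-fold and IRF5 by 3.71-fold. IRF4 fell as well, from 10.9 to 0.563 CPM, so that BATF rose in a contrast in which both of these partner genes fell.

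Of 36 tested genes from a list known as AP-1 targets in various cells, 9 rose and 25 fell between the control groups (median -0.89), and 8 rose and 24 fell with GATA2 overexpression (median -0.98). HBEGF, a growth factor gene, rose 4.71-fold and LOX, a collagen cross-linking enzyme gene, 5.94-fold from CD38+ to CD90+ control, while the chemokine gene CCL2 fell 20.9-fold and SPP1, for osteopontin, 5.32-fold. With GATA2 overexpression LOX rose 2.86-fold, and MMP9, a matrix protease gene, fell 28.1-fold and SPP1 24.1-fold. Many of these genes are also expressed by macrophages, whose markers moved as given above. Against CD38+ control, 26 of the 36 were lower in the overexpressing cells and 7 higher (median -1.95). The all-gene shares in that comparison were 39.9% lower and 43.3% higher (median 0.07). A link between the levels of these genes and those of the members was not tested.

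**Figure D4:**
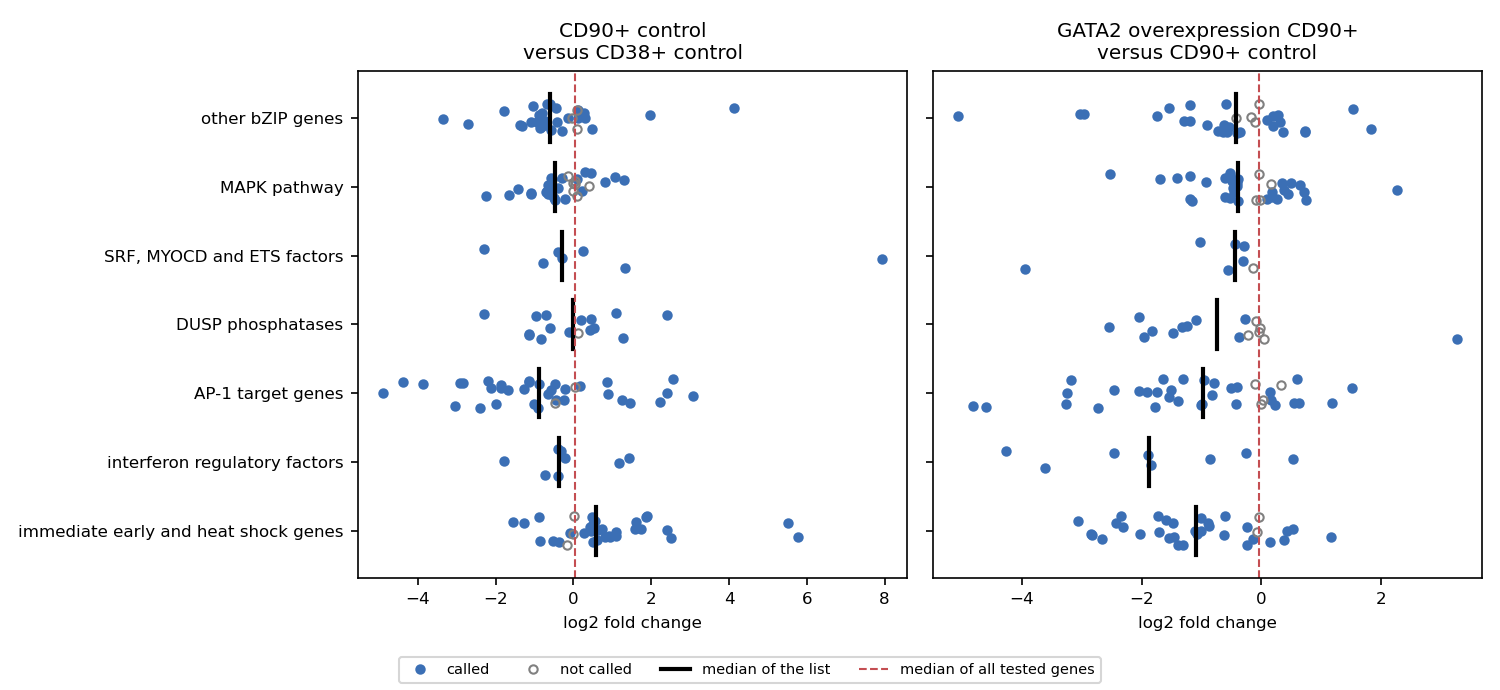
Log2 fold changes (x axis) of the genes of 7 lists in CD90+ control versus CD38+ control (left) and GATA2 overexpression CD90+ versus CD90+ control (right), filled where called, with the list median as a black bar and the median of all tested genes as a dashed line. The immediate early and heat shock list lies mostly to the right on the left side (median 0.58) and mostly to the left on the right side (median -1.09).

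Genes with the most similar pattern over the 9 libraries were those with the smallest root mean square distance in centred log2 CPM. They were taken from 10610 genes with a mean of at least 5 CPM, and 0.5 CPM was added before the log. For FOS they were PLCB4 (0.09), CLEC1B (0.11) and GSTA4 (0.11). PLCB4 averaged 0.402 CPM in CD38+ control, below the added 0.5 CPM, and 9.10 in CD90+ control. Its edgeR rise between these groups was 22.6-fold, against 11.3-fold for FOS, so its small distance rests on the added value. CLEC1B, a platelet receptor gene, averaged 3.29, 43.9 and 56.8 CPM in the 3 groups. For JUN they were SUSD3 (0.03), KDM1A (0.04) and DNAAF2 (0.05), and KDM1A, a histone demethylase gene, averaged 97.9, 179 and 307 CPM. For ATF3 they were DHRS3 (0.07), PITPNM1 (0.08) and PLEC (0.10), and for BATF TMEM14A, PRR13 and SDF2L1 (0.11 each). These distances mostly reflect 3 group means and describe likeness of level only.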

How the data were processed

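Strand-specific RNA-seq of 9 libraries was analysed from the counts that the authors deposited, which are unnormalized reads per symbol. HISAT2, featureCounts and hg38 are named per the submitters' processing notes. Their versions, the annotation and the strand setting were not stated in those sources. Groups came from the labelled genotype and surface marker. Genes passing filterByExpr (minimum count 10, minimum total 15; 16232 genes) were fitted with edgeR 4.0.16 (R 4.3.3) by the quasi-likelihood method with TMM factors and 3 group means, with calls at an adjusted p (Benjamini-Hochberg over all tested genes) under 0.05. SE is the log2 fold change over the square root of F. TMM factors were 0.876 to 1.17. The range of depth is in the report. RPKM used GENCODE 29 exon lengths. Replicates differed by 3.96 to 7.84 chi-square per degree of freedom, so none was a copy. The fit was tested on simulated data with planted changes in few genes, which cannot test the scaling where most genes differ. Named genes are the 10 members, up to 3 genes per direction and list with the lowest adjusted p and a mean of at least 5 CPM, the 2 leading markers per list, and the 3 most similar genes for 4 members. Members and all 18 lists (7 pathway, 11 marker) were chosen with earlier results of these data known. Of 279 list symbols, 271 matched directly, 2 by synonym, and 6 were not analysed here. Alternatives covered scaling, filters, DESeq2 1.42.0, limma 3.58.1 voom, a 2-group fit, a replicate block, each library left out, and gene length. A few items that the rule for named genes or the motif search covers are not reported here.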

Additional observations from a re-analysis of the deposited data

How the results depend on the processing

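Each of the 30 fold changes (10 genes, 3 comparisons) was recomputed under 15 alternatives. Of the 450 values, 438 kept direction and call, 10 passed the threshold where the reported value did not, 2 changed sign, and none lost its call without changing sign. The sign changes were FOS (-0.036) and JUND (-0.026) in GATA2 overexpression versus CD90+ control with library size as the only scaling. The 10 belonged to JUND in CD90+ versus CD38+ control (log2 0.11 to 0.48 in 7 alternatives) and FOSL1 in GATA2 overexpression versus CD90+ control (-0.29 with library size only, -0.16 with upper-quartile factors and -0.14 with a filter of 1 CPM in 3 libraries). Scaling by library size alone shifted the all-gene median by 0.41, -0.25 and 0.16 in the 3 comparisons, and changed the share of calls that were higher from 51.2% to 71.2%, from 49.0% to 35.5% and from 52.1% to 58.0%. Upper-quartile factors shifted it by 0.26, -0.11 and 0.15, with 64.3%, 42.8% and 57.5% higher, and leaving out the filter on low counts by -0.10 in GATA2 overexpression versus CD90+ control. The number of members called was 9 to 10, 8 to 10 and 10 over the alternatives. In the interferon regulatory factor list 4 of 8 genes were called between the control groups with library size only. With the longest transcript as gene length the FOS to JUN family ratio was 0.628, 2.75 and 3.65 and the FOS share 56.7%, 92.3% and 96.6%. Ranked by Pearson's r instead of distance, 0 of the 3 similar genes were shared for FOS, 1 for JUN, 0 for ATF3 and 0 for BATF. With the replicate number as a block, 9, 9 and 10 members and 12889, 12384 and 13347 genes were called, against 13056, 12602 and 13498 without the block. Same-numbered libraries deviated together with correlations of -0.03 to 0.03, and differently numbered ones also with -0.03 to 0.03. Genes with few counts weigh as much as others in these values, so they cannot settle whether the numbers pair the samples. Depth limits BATF3, at 21 to 55 counts in overexpressing libraries.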
